A study of Mus musculus with 12 samples.

Results

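The RNA of 8 MHC class II genes was followed through stem and progenitor cells of a mouse model of chronic myeloid leukemia (CML). The genes are the chains of the surface molecule H2-Aa, H2-Ab1 and H2-Eb1, the invariant chain Cd74, the peptide-loading genes H2-DMa, H2-DMb1 and H2-DMb2, and the transactivator Ciita. They were listed by name as class II genes of antigen presentation, with earlier results of these data known. All 8 were among the 46103 genes left once the numbered copies under which the files list some genes had been added up, and 7 of them passed the filter for testing, at least 1 RPKM in 3 or more libraries, which 10072 genes passed. RPKM are reads scaled by transcript length and by the total of the library. Ciita stayed below that level in every library and was tested on its own.

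Each of the 12 libraries was made from 100 sorted cells of bone marrow and spleen. All 4 groups came from one disease model. Bone marrow cells of 5FU-treated G0M mice were transduced with a retrovirus carrying human BCR-ABL1 and GFP and were given, together with normal C57BL/6 bone marrow cells, to lethally irradiated C57BL/6 recipients. G0M is a marker of the G0 phase, a fusion of mVenus with a defective p27 at the Rosa26 locus that Vav1-Cre switches on in blood cells. The sort kept BCR-ABL1+ cells with CD27, Sca1 and c-Kit that lacked the lineage markers, among them CD11b and B220. DP cells were G0M+ and SP cells G0M-, both from vehicle-treated mice, and IMDP (G0M+) and IMSP (G0M-) cells came from mice treated by gavage with imatinib, which blocks the BCR-ABL1 kinase, at 40 mg/kg once a day from day 10. Each group had 3 libraries. The labels do not say whether the libraries came from separate mice, so p values measure the spread between these libraries, which may be technical. The imatinib libraries carry the library numbers 1 to 6 and the vehicle libraries 7 to 12, so drug effect and batch of libraries cannot be told apart. In bulk RNA, fewer cells with a transcript and less transcript per cell cannot be told apart either.

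MHC class II molecules are pairs of an alpha and a beta chain that show peptides from the endosome to CD4 T cells. The invariant chain CD74 guides the new pair to the endosome and blocks its groove, and the H2-DM pair then helps to exchange the remaining fragment of CD74 for a peptide. CIITA does not bind DNA itself; it is recruited to factors sitting on the conserved X and Y boxes before these genes and is their main switch. Dendritic cells, B cells and macrophages are the classical carriers of class II, and blood stem and progenitor cells are known to carry some.

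On GRCm38, 6 of the genes lie together on chromosome 17: H2-DMa at chr17:34119541-34139101, H2-DMb2 at chr17:34143307-34151555, H2-DMb1 at chr17:34153072-34160230, H2-Ab1 at chr17:34257689-34269419, H2-Aa at chr17:34282744-34287823 on the minus strand and H2-Eb1 at chr17:34305867-34316674. All 8 genes are annotated as protein-coding. The windows around the start (250 bases before to 50 after, RefSeq on GRCm38.p6) of 4 of them are shown so that their letters can be compared with the X and Y boxes, since 2 of the 4 genes (H2-Aa and H2-Eb1) moved with Cd74 below and the other 2 did not. Capitals mark matches to ACNGATG, the core of the X box, and TGATTGG, the Y box, on either strand, and each sequence reads 5′ to 3′ along its gene.
H2-Aa, chr17:34287774-34288073, minus strand: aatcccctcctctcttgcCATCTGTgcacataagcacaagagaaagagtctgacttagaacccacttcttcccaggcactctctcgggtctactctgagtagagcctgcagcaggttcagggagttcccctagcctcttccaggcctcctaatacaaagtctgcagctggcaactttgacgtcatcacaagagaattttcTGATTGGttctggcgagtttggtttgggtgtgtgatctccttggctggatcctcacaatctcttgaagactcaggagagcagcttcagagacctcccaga
H2-Eb1, chr17:34305617-34305916, plus strand: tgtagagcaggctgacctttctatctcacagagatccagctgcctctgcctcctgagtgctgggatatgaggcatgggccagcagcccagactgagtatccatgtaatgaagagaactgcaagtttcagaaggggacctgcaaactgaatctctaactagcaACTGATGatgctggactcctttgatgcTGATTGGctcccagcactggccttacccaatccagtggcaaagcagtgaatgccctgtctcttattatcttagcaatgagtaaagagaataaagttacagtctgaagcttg
H2-DMb1, chr17:34152941-34153240, plus strand: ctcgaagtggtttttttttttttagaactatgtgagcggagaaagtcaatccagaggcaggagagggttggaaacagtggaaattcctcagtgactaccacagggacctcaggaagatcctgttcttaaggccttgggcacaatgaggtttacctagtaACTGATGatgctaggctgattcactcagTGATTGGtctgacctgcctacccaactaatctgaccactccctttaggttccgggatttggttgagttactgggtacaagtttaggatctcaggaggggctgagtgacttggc
H2-DMb2, chr17:34144999-34145298, plus strand: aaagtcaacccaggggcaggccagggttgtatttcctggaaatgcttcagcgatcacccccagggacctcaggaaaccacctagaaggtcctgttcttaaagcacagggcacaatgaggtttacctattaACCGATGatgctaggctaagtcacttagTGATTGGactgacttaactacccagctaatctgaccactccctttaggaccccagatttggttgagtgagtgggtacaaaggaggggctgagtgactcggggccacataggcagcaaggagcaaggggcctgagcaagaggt
In H2-Eb1, H2-DMb1 and H2-DMb2 the X core stood before the Y box on the same strand, with 20, 21 and 21 bases between them. H2-Aa held the Y box, 50 bases before its start, but a match to ACNGATG only on the opposite strand and farther away. The X core was found in 9.85% and the Y box in 7.82% of the 32851 promoter windows, and an X core followed by a Y box within 10 to 40 bases in 18 windows, or 0.0548%. Neither of the 2 windows of H2-DMa, at chr17:34122582-34122881 and chr17:34125268-34125567, held a match. H2-DMa has 8 annotated transcripts, and any start outside these windows was not searched. A match describes letters and not a bound site. A box that differs from these letters would not be marked, so a missing match does not show that a gene lacks the box. The set of windows had 5 of the 8 genes.

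The total behind the RPKM was 11.4 to 20.6 M reads per library, of which 25.5% to 36.6% fell on listed features. This share moved with the population: it was 30.4% to 33.2% in DP, 25.5% to 30.7% in IMDP, 31.7% to 33.7% in SP and 32.2% to 36.6% in IMSP libraries, lower in G0M+ cells in each of the 6 pairs of libraries with adjacent numbers, though hardly so in some vehicle pairs. Its part in the differences below was not tested beyond the scalings to the same median or sum. Over the 12 libraries Cd74 had 3589 reads, H2-Ab1 1588, H2-Aa 1077, H2-Eb1 618, H2-DMa 4433, H2-DMb1 626, Ciita 373 and H2-DMb2 140. The last rests on few reads, and its longest transcript is 95.5% identical to that of H2-DMb1 over 1058 aligned bases, so that reads of these neighbours may be assigned to either. Exons of H2-DMa overlap Brd2 and those of Ciita overlap Dexi, each on the other strand, and whether the counting used strand is not stated. The sort markers Kit, Cd27 and Cd34 were above 12 RPKM in every library (12.2 to 66.9 RPKM), and Ly6a, which encodes Sca1, lay between 3.12 and 20.8 RPKM. Mki67, a proliferation gene, lay between 7.18 and 21.3 RPKM in G0M+ and between 50.8 and 70.6 RPKM in G0M- libraries.

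Cd74, at chr18:60803848-60812652, was the most abundant of the 8 genes in DP cells, per length. It reached 6.18, 35.5 and 48.3 RPKM in the 3 DP libraries and 15.9, 2.38 and 11.1 RPKM in the SP libraries. In imatinib-treated mice it reached 25.4, 7.08 and 7.47 RPKM in IMDP and 1.25, 2.67 and 2.99 RPKM in IMSP libraries. DP and SP libraries thus overlapped, through DP replicate 1, while every IMDP library was above every IMSP library. The means were 29.96 ± 21.6 RPKM (SD, n = 3) in DP, 13.3 ± 10.5 in IMDP, 9.82 ± 6.88 in SP and 2.30 ± 0.928 in IMSP cells, and neighbours in this order differed by less than the larger of their SDs, except SP and IMSP cells.

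H2-Aa, the alpha chain of the I-A molecule, ran beside Cd74. Its values were 1.61, 13.2 and 19.85 RPKM in DP, 7.18, 0.717 and 4.10 RPKM in SP, 13.0, 1.70 and 2.87 RPKM in IMDP and 0.266, 0.329 and 1.18 RPKM in IMSP libraries. The order of the 3 replicates within each group was that of Cd74, with IMDP above IMSP in every library and DP and SP overlapping.

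H2-Ab1 encodes the beta chain that pairs with it. It reached 5.94, 15.2 and 20.7 RPKM in DP, 9.49, 3.41 and 7.22 RPKM in SP, 10.6, 1.86 and 5.64 RPKM in IMDP and 2.62, 1.48 and 1.62 RPKM in IMSP libraries. Here IMDP replicate 2 lay within the IMSP range, and all IMSP libraries lay below all SP libraries.

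H2-Eb1, the beta chain of the I-E molecule, was lower and near the limit of detection in G0M- cells under imatinib. It reached 0.995, 4.59 and 7.82 RPKM in DP, 3.23, 0.0354 and 1.201 RPKM in SP and 4.68, 0.524 and 0.743 RPKM in IMDP libraries. The IMSP libraries stood at 0.137, 0 and 0.0445 RPKM, which are 4, 0 and 1 reads, and SP replicate 2 held 1 read. The size of its fold changes therefore depends on the constant added before the logarithm. H2-Ea-ps, listed in place of its partner chain, was at 0 in all 12 libraries, so no RNA for the alpha chain of I-E was seen. Class II protein at the surface was not measured, and H2-Eb1 is counted among the surface chains by name only.

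**Figure D1:**
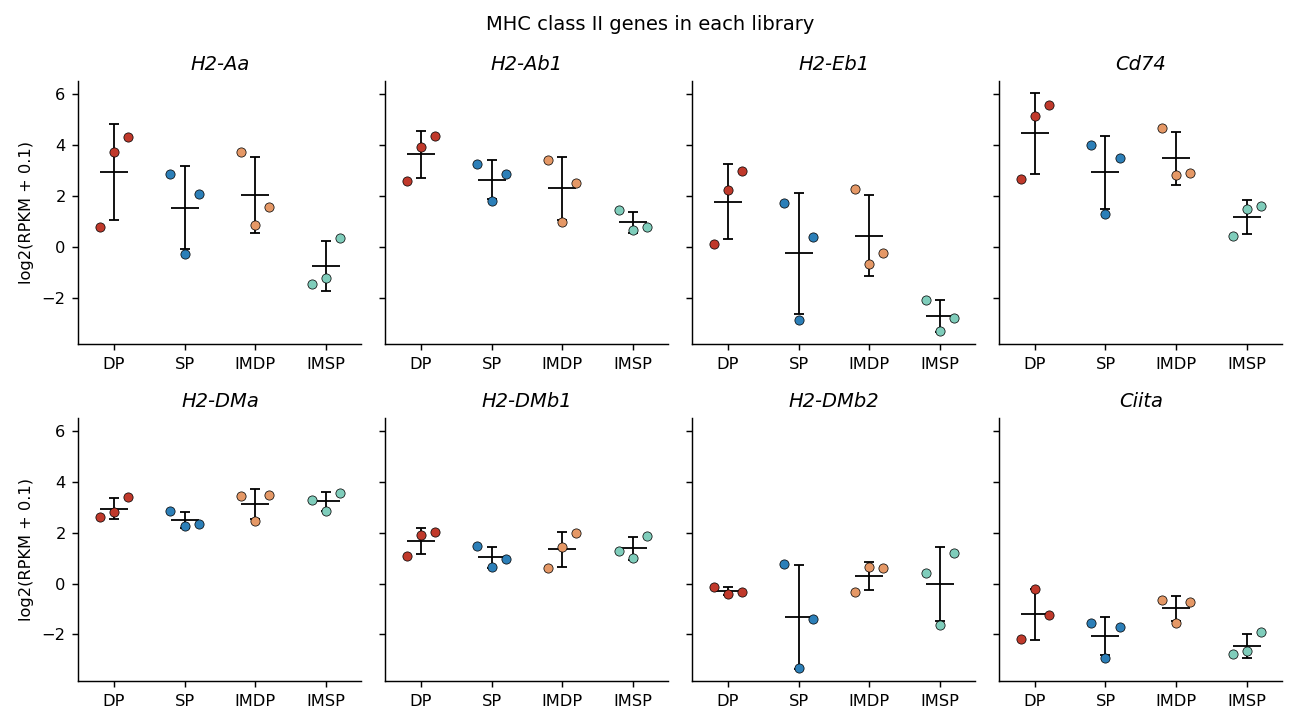
Expression of the 8 genes as log2(RPKM + 0.1), with 1 point per library (replicates 1 to 3 from left to right), the group mean (bar) and SD (whiskers), n = 3 per group. H2-Aa, H2-Eb1 and Cd74 have every IMDP library above every IMSP library, whereas H2-DMa, H2-DMb1 and H2-DMb2 show no such step.

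The peptide-loading genes did not share this pattern. H2-DMa, the alpha chain of the loading pair, reached 6.02, 6.94 and 10.5 RPKM in DP, 7.22, 4.68 and 5.04 RPKM in SP, 10.9, 5.42 and 11.2 RPKM in IMDP and 9.71, 7.08 and 11.8 RPKM in IMSP libraries. The groups overlapped in both populations, and the highest library was 2.51 times the lowest, against 38.7 times for Cd74 and 74.6 times for H2-Aa. H2-DMb1, a beta chain of the pair, lay between 1.45 and 4.00 RPKM, with means of 3.24 ± 1.05 RPKM (SD, n = 3) in DP, 2.64 ± 1.21 in IMDP, 2.00 ± 0.623 in SP and 2.60 ± 0.872 in IMSP cells. H2-DMb2, the second beta chain, lay between 0 and 2.17 RPKM, with 0 reads in SP replicate 2.

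Ciita, at chr16:10480059-10528418, was present at a low level in every library. It reached 0.119, 0.766 and 0.324 RPKM in DP, 0.239, 0.0314 and 0.208 RPKM in SP, 0.536, 0.242 and 0.503 RPKM in IMDP and 0.0455, 0.0586 and 0.168 RPKM in IMSP libraries, on 4 to 90 reads. Every IMDP library was above every IMSP library, and DP and SP overlapped. In an exact permutation test, two-sided, of the mean log2(RPKM + 0.1), the 6 G0M+ libraries were above the 6 G0M- libraries by 1.16 (p = 0.0173), and the 6 imatinib libraries differed from the 6 vehicle libraries by -0.074 (p = 0.885). IMDP was above IMSP by 1.47 with an exact p = 0.1, the smallest that 3 against 3 libraries allow, and DP above SP by 0.85 with an exact p = 0.4. These p values are not adjusted; 6 comparisons of Ciita were made.

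The first comparison asked how quiescent and cycling stem and progenitor cells differed under vehicle. In DP against SP cells (limma over 10072 genes, Benjamini-Hochberg adjusted p) the difference was above 0 for all 7 genes tested, and none passed the threshold of 0.05. H2-Eb1 was higher by 2.04 ± 1.13 on the log2 scale (SE, adjusted p = 0.471), Cd74 by 1.53 ± 0.83 (0.465), H2-Aa by 1.40 ± 1.04 (0.582) and H2-Ab1 by 0.99 ± 0.60 (0.512). These values are on the log2(RPKM + 0.1) scale, which understates the change of low genes. Of all tested genes, 2.26% were called in this comparison, which held no block for library pairs. None of the 7 reached an unadjusted p of 0.05, with limma or with limma-voom on the recovered reads. No member separated the DP from the SP libraries without overlap, as 9.68% of all tested genes did upward. The median difference of the 7 genes was 1.01, against -0.015 over all tested genes. With 1 library left out it ranged from 0.476 (without SP replicate 2) to 2.05 (without SP replicate 1).

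Under imatinib the differences of the surface chains and Cd74 between the populations were larger, but still missed the threshold. In IMDP against IMSP cells H2-Eb1 differed by 3.17 ± 1.13 (limma adjusted p = 0.0574), Cd74 by 2.30 ± 0.83 (0.0605), H2-Aa by 2.82 ± 1.04 (0.0651) and H2-Ab1 by 1.34 ± 0.60 (0.119). With 0.5 or 1 RPKM in place of 0.1 as the added constant, the difference of H2-Eb1 was 1.75 or 1.22. No member was called without a block for library pairs (given below), in a comparison that called 25.6% of all tested genes. Of these most were lower in IMDP cells (23.3% of all tested genes), but the balance depends on the scaling: with libraries scaled to the same median 6.42% were called higher and 9.33% lower, and scaled to the same sum 9.59% higher and 6.1% lower. All 4 genes had an unadjusted p below 0.05 with limma, and none with limma-voom. H2-Aa, H2-Eb1 and Cd74 were higher without overlap of the libraries, which held for 6.21% of the tested genes. The loading genes stayed near 0, at -0.10 ± 0.31 for H2-DMa, -0.03 ± 0.37 for H2-DMb1 and 0.31 ± 0.91 for H2-DMb2, and the first 2 turned positive when the libraries were scaled to the same median or sum. The median difference over all genes was -0.255 here, so relative to the bulk of genes the surface chains stood somewhat higher than these values. The larger differences under imatinib were not shown to differ from those under vehicle: no interaction passed, with 1.14 ± 1.60 for H2-Eb1 (limma adjusted p = 0.826), 1.42 ± 1.47 for H2-Aa (0.749), 0.77 ± 1.18 for Cd74 (0.846) and 0.36 ± 0.85 for H2-Ab1 (0.909). The interaction called 0.0% of all tested genes, with 937 genes at an unadjusted p under 0.05 by limma and 960 by limma-voom, which also called 0.

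Averaged over both treatments, Cd74 and H2-Eb1 rose in G0M+ cells. Cd74 was 3.78-fold higher, a log2 difference of 1.92 ± 0.59 (limma adjusted p = 0.0329), and H2-Eb1 6.09-fold, or 2.61 ± 0.80 (0.0329). H2-Aa differed by 2.11 ± 0.74 (0.0525) and H2-Ab1 by 1.16 ± 0.43 (0.0614), just short of the threshold. H2-DMa (0.18 ± 0.22), H2-DMb1 (0.31 ± 0.26) and H2-DMb2 (0.66 ± 0.64) did not pass. The median over the 7 genes was 1.16, against -0.135 over all tested genes. Thus 2 of 7 genes were called, both higher, where 26.3% of all tested genes were called in either direction, 5.32% higher and 21.0% lower. Scaled to the same median or sum, 4 of the 7 were called higher, where 11.2% and 15.0% of all genes were called higher and 12.4% and 8.84% lower. The count rests on single libraries. No member was called without DP replicate 2 (limma adjusted p of Cd74 = 0.0755), DP replicate 3 (0.0838), IMDP replicate 1 (0.0633), IMSP replicate 1 (0.083) or SP replicate 2 (0.0732), 1 was called without IMSP replicate 2, and all 4 surface and invariant chain genes were called without DP replicate 1 (0.00672). Limma-voom on the recovered reads called none of the 7, with an adjusted p of 0.0706 for Cd74 and 0.169 for H2-Eb1.

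**Figure D2:**
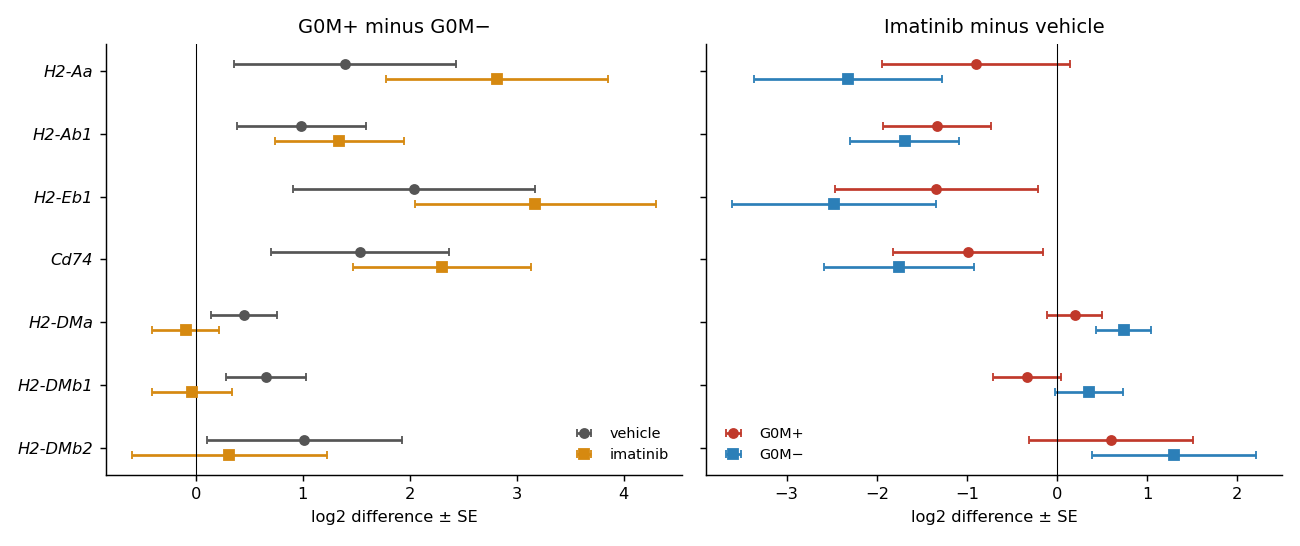
Differences of the 7 genes tested, in log2(RPKM + 0.1) with SE, between G0M+ and G0M- cells under each treatment (left) and between imatinib and vehicle in each population (right), n = 3 libraries per group. H2-Aa, H2-Ab1, H2-Eb1 and Cd74 lie right of 0 on the left and left of 0 on the right. In this fit, without a block for library pairs, none of these 4 contrasts passed for a single gene.

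Much of the spread within groups ran with the library number. G0M+ and G0M- libraries with neighbouring numbers deviated together from their group means over all tested genes, with correlations of 0.429 to 0.655 in the 6 pairs, so each G0M+ library was also compared with its neighbour. H2-Aa, H2-Ab1, H2-Eb1, Cd74 and Ciita were higher on the G0M+ side of every one of the 6 pairs, as were 11.3% of the tested genes. Cd74 was 20.4-fold higher in IMDP replicate 1 than in IMSP replicate 1, and between 2.50- and 3.19-fold higher in the other 5 pairs. The pair that held the lowest DP library, DP replicate 1 and SP replicate 2, differed 2.60-fold (6.18 against 2.38 RPKM), and the pair with the highest, DP replicate 3 and SP replicate 1, 3.03-fold (48.3 against 15.9 RPKM). The level of Cd74 thus moved more between pairs than its ratio within them, apart from the first imatinib pair. H2-Ab1 was 1.26- to 4.03-fold higher, H2-Aa 2.25- to 49.0-fold and Ciita 1.35- to 11.8-fold. H2-DMa was higher in 4 pairs, H2-DMb1 in 5 and H2-DMb2 in 3.

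With the library pair as a block in the fit, more of these genes passed. In DP against SP cells H2-Eb1 was called (limma adjusted p = 0.0243), H2-Ab1 lay at 0.0501, H2-DMa at 0.0584, Cd74 at 0.0686, H2-DMb1 at 0.0829 and H2-Aa at 0.155, where 4.17% of all tested genes were called higher. In IMDP against IMSP cells H2-Eb1 (0.000758), H2-Ab1 (0.00387), Cd74 (0.00403) and H2-Aa (0.00437) were all called, beside 8.22% of all genes called higher. Averaged over treatments the same 4 were called, from 0.000308 for H2-Eb1 to 0.00308 for H2-Aa, where 13.4% of all genes were called higher. No loading gene was called in any of these, with adjusted p values of 0.14 for H2-DMa, 0.116 for H2-DMb1 and 0.351 for H2-DMb2 in the average. The fold changes are those given above, since the block changes only their errors. What a pair of neighbouring numbers shared (mice, day of sort or preparation) is not given in the labels.

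**Figure D3:**
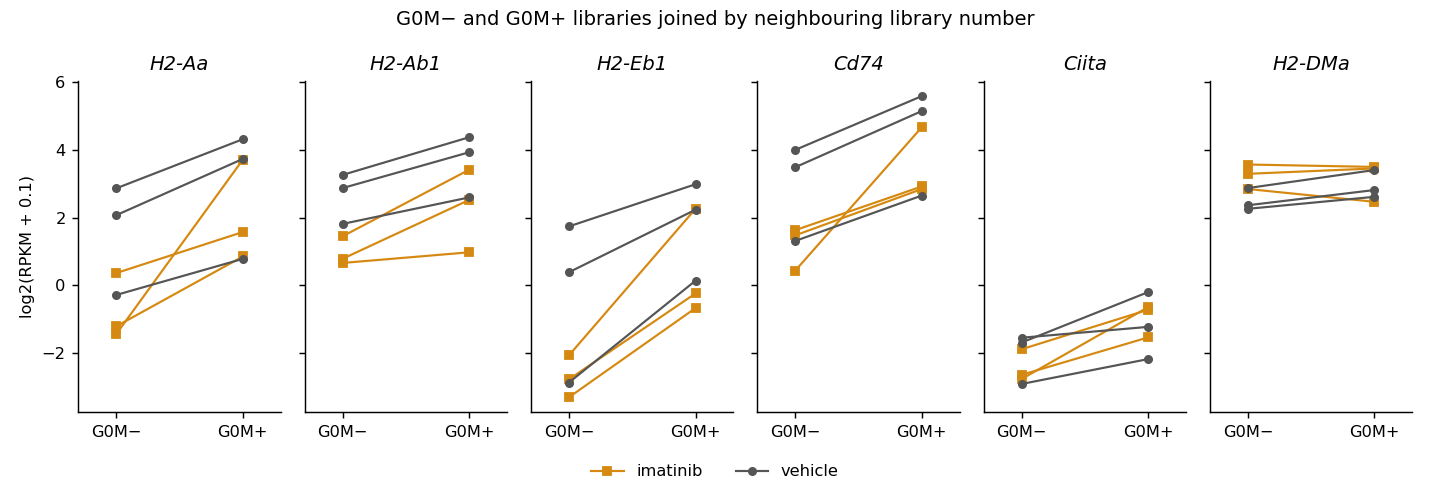
Expression in log2(RPKM + 0.1) of 6 genes in each G0M- library (left) and the G0M+ library with the neighbouring library number (right), with 3 vehicle pairs (circles) and 3 imatinib pairs (squares). All 6 lines rise for H2-Aa, H2-Ab1, H2-Eb1, Cd74 and Ciita, and 4 of 6 rise for H2-DMa.

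The next comparisons asked what imatinib treatment changed in each population. In IMDP against DP cells no member was called, where 0.367% of all tested genes were. Cd74 differed by -0.99 ± 0.83 (limma adjusted p = 0.535), H2-Aa by -0.90 ± 1.04 (0.661), H2-Eb1 by -1.34 ± 1.13 (0.536) and H2-Ab1 by -1.33 ± 0.60 (0.238). The median over the 7 genes was -0.899. With 1 library left out it ranged from -1.852 (without DP replicate 1) to -0.211 (without DP replicate 3). IMSP against SP cells gave differences of -2.48 ± 1.13 for H2-Eb1 (0.589), -2.32 ± 1.04 for H2-Aa (0.589), -1.76 ± 0.83 for Cd74 (0.591) and -1.69 ± 0.60 for H2-Ab1 (0.487), and of 0.74 ± 0.31 for H2-DMa (0.551). This comparison called 0.0% of all tested genes, also with limma-voom, and 845 genes had an unadjusted p under 0.05 (873 with limma-voom). Among the members, 4 were under an unadjusted 0.05 with limma (H2-Ab1, H2-DMa, H2-Aa and H2-Eb1) and 1 with limma-voom. H2-Ab1 was lower in IMSP than in SP cells without overlap, as were 2.71% of all tested genes. Over both populations the surface chains and Cd74 differed by -1.37 ± 0.59 (Cd74, adjusted p = 0.25) to -1.91 ± 0.80 (H2-Eb1, 0.243), with -1.51 ± 0.43 and the smallest p for H2-Ab1 (0.105), and none passed in limma, in a comparison that called 0.854% of all genes. Imatinib was given in one run of library numbers, so these differences hold for the libraries and not for the drug alone.

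Over the 12 libraries the genes fell into a group that moved together and a group that did not. Pearson's r of log2(RPKM + 0.1) among H2-Aa, H2-Ab1, H2-Eb1 and Cd74 lay between 0.877 and 0.98, with the highest value for H2-Aa and Cd74. Ciita had an r of 0.66 to 0.842 with these 4. The 3 loading genes had an r of -0.005 to 0.326 with the 4 and of 0.489 to 0.621 with each other. When group means were taken out, H2-Aa and Cd74 still had an r of 0.964, and H2-DMa had an r of 0.548 to 0.801 with the 4 genes. The points share the libraries, their depth and the library pairs, so these values describe the 12 libraries. Outside the members, the tested genes whose values were most like the mean of the tested members were Cd28 (r = 0.966), Crebrf (0.923), Serpinb6b (0.904), Plaur (0.89) and Kcnh6 (0.89). After removal of group means they included Cd28 (0.972), Epm2a (0.931), Il17ra (0.926) and Itpr3 (0.922). Cd28, known as the costimulatory receptor of T cells, lay between 0.0611 and 1.79 RPKM.

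The other genes of antigen processing and class II control moved in both directions. Of 46 such genes, 43 were listed and 33 were tested. In the average over treatments 1 was called higher and 5 lower, with a median difference of -0.022 against -0.135 over all genes. Of the 33 genes that is about the share called higher among all tested genes (5.32%) and below the share called lower (21.0%). The balance turned with the scaling, to 5 higher and 4 lower at the same median and 6 higher and 3 lower at the same sum. It turned over all tested genes as well, to 11.2% higher and 12.4% lower at the same median and 15.0% and 8.84% at the same sum. The one that rose as deposited was H2-Oa, the alpha chain of H2-DO, which restrains H2-DM. It lay between 1.16 and 2.77 RPKM in DP, 2.14 and 2.59 in IMDP, 0.354 and 1.35 in SP, and 0.99 and 1.17 in IMSP libraries. Its difference was 1.05 ± 0.29 (limma adjusted p = 0.0208), with 1.03 ± 0.41 (0.302) under vehicle and 1.07 ± 0.41 (0.0705) under imatinib. It was also called with both scalings (0.0128 at the same median and 0.0109 at the same sum). Its partner H2-Ob, between 0.23 and 5.15 RPKM, did not pass (0.92 ± 0.37, limma adjusted p = 0.0825), but was called at the same sum (0.0495).

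Among the factors that bind the boxes, Nfyb and Nfyc, subunits of the trimer NF-Y that reads the Y box, fell in G0M+ cells, as did Creb1, which binds beside the X box. Their differences in the average were -0.76 ± 0.14 for Nfyb (limma adjusted p = 0.00322), -0.60 ± 0.14 for Nfyc (0.0103) and -0.51 ± 0.12 for Creb1 (0.0111). Nfyb and Nfyc were also called lower with both scalings, by -0.52 (0.00874) and -0.36 (0.0473) at the same sum, whereas Creb1 was not called at the same sum (-0.27, 0.0842). Nfyb lay between 3.63 and 6.19 RPKM in the G0M+ and between 6.80 and 9.24 RPKM in the G0M- libraries, with no overlap. The RFX subunits Rfx5, Rfxap and Rfxank, which read the X box, and Nfya, the third subunit of NF-Y, did not pass in the average. Of the endosomal enzymes Ctsz, a cathepsin, differed by -1.15 ± 0.25 (0.00736) and Ifi30, a thiol reductase that opens disulfide bonds of antigens, by -0.89 ± 0.27 (0.032), and the other 7 tested did not pass. Ctsz was called with both scalings as well, and Ifi30 with neither (0.0721 at the same median and 0.0979 at the same sum). Under imatinib alone 6 genes of the list were lower in IMDP than in IMSP cells (Nfyb, Nfyc, Creb1, Ctsz, Ifi30 and Ifngr2) and none was higher, a share of the 33 below that of all tested genes called lower (23.3%), and under vehicle none was called. At the same median the list had 4 genes higher (H2-Oa, Rfx5, Jak1 and Irf2) and 4 lower under imatinib. Of all tested genes, 6.42% were then called higher and 9.33% lower. At the same sum it had 5 higher (these 4 and Ctsl) and 1 lower, which was Ctsz, where 9.59% of all genes were called higher and 6.1% lower. Rfx5 differed by 0.59 (limma adjusted p = 0.0495) at the same median and by 0.73 (0.0417) at the same sum in IMDP against IMSP cells. Ifngr2 is a subunit of the receptor of interferon gamma, the best known inducer of Ciita, and differed there by -0.57 ± 0.19 (0.0486), and by -0.30 (0.245) and -0.16 (0.527) with the scalings to the same median and sum. Ifng itself had 3 reads in all. With the library pair block the list had 7 genes called higher and 10 lower in the average, where 13.4% of all tested genes were called higher and 33.4% lower. The costimulatory genes Cd80, Cd86 and Cd40, which professional carriers of class II show beside it, did not pass the filter, with at most 0.31, 1.27 and 0.215 RPKM. Cd86 lay between 0.546 and 1.27 RPKM in IMDP and between 0.155 and 0.288 RPKM in IMSP libraries. In DP and SP libraries it lay between 0.497 and 0.699 and between 0.206 and 0.551 RPKM. The paper lists CD80/86 among checkpoint molecules with relatively higher RNA in IMDP cells.

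**Figure D4:**
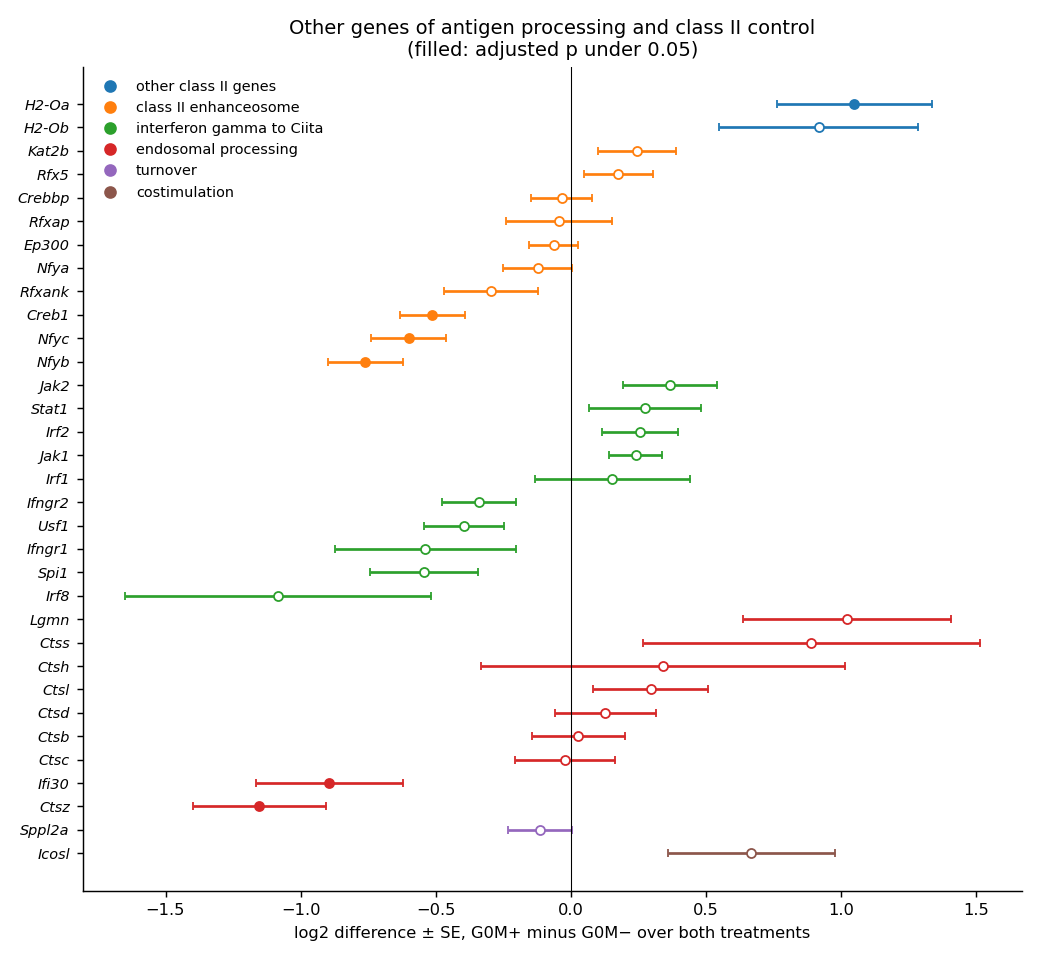
Differences between G0M+ and G0M- cells over both treatments, in log2(RPKM + 0.1) with SE, for the 33 tested genes of antigen processing and class II control, coloured by role, n = 6 libraries per population. Filled points passed an adjusted p of 0.05 (H2-Oa higher, and Creb1, Nfyc, Nfyb, Ifi30 and Ctsz lower), of which Creb1 did not pass with libraries scaled to the same sum and Ifi30 with neither scaling.

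Markers of the classical class II carriers were set beside the members. Of 10 B cell markers, Ms4a1, Pax5, Ebf1 and Ighm were at 0 in all 12 libraries, and Cd79b made up most of the sum of the list (1.44 to 4.31 RPKM). The sum of 10 dendritic cell markers was 2.05 to 3.81 RPKM in DP, 2.26 to 3.01 in IMDP, 1.24 to 2.33 in SP and 1.39 to 3.14 in IMSP libraries, higher in the G0M+ library of 4 of 6 pairs, and Clec10a was the only one tested. The dendritic cell list was highest in DP replicate 1 (3.81 RPKM), the DP library lowest in Cd74. Clec10a made up much of this list, with 0.979 to 3.02 RPKM in DP libraries. No other marker of the list passed 0.524 RPKM there. The 10 macrophage markers summed to 5.68 to 17.1 RPKM in DP, 19.2 to 22.3 in IMDP, 3.90 to 9.32 in SP and 7.77 to 38.5 in IMSP libraries, higher in the G0M+ library of 5 of 6 pairs. Among them C1qa, C1qb, C1qc and Cd5l were at 0 in every G0M- library, and C1qc lay between 0.342 and 1.65 RPKM in the G0M+ libraries. Of the 6 macrophage markers tested, C1qc (3.85, limma adjusted p = 0.00829) and Vcam1 (3.58, 0.0173) were called higher in IMDP than in IMSP cells. Of all 10072 tested genes, 239 were called higher there. Adgre1 (1.15, 0.27), Cd163 (0.28, 0.666), Cd68 (0.05, 0.917) and Csf1r (-0.63, 0.579) were not called. Under vehicle none of the 6 was called. Csf1r reached 28.7 RPKM in 1 IMSP library. The 8 markers of mast cells and basophils had a higher sum in the G0M+ member of each of the 6 pairs (62.4 to 276 RPKM in DP, 13.1 to 167 in IMDP, 7.31 to 15.04 in SP and 5.59 to 18.6 in IMSP libraries), and the 8 T and NK cell markers in 5 of 6 (0.162 to 20.8 RPKM in all). In DP libraries most of the T and NK cell sum was Gzma (1.23 to 20.45 RPKM). SP replicate 1, the SP library highest in Cd74 (15.9 RPKM), also had the highest sums of macrophage (9.32 RPKM), dendritic cell (2.33 RPKM), B cell (3.87 RPKM) and T and NK cell markers (1.23 RPKM) among the SP libraries. In DP cells the order differed, since DP replicate 1, lowest in Cd74, had the highest macrophage sum (17.1 RPKM) and DP replicate 2 (35.5 RPKM of Cd74) the lowest (5.68 RPKM). IMDP replicate 1, highest of its group in Cd74 (25.4 RPKM), had its lowest macrophage (19.2), dendritic cell (2.26) and B cell sums (2.72). Its mast cell (167) and T and NK cell sums (5.94) were the highest there. IMSP replicate 3, highest of its group in Cd74 (2.99 RPKM), had its highest macrophage (38.5) and dendritic cell sums (3.14). What part these cells had in the RNA of the members was not tested.

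**Figure D5:**
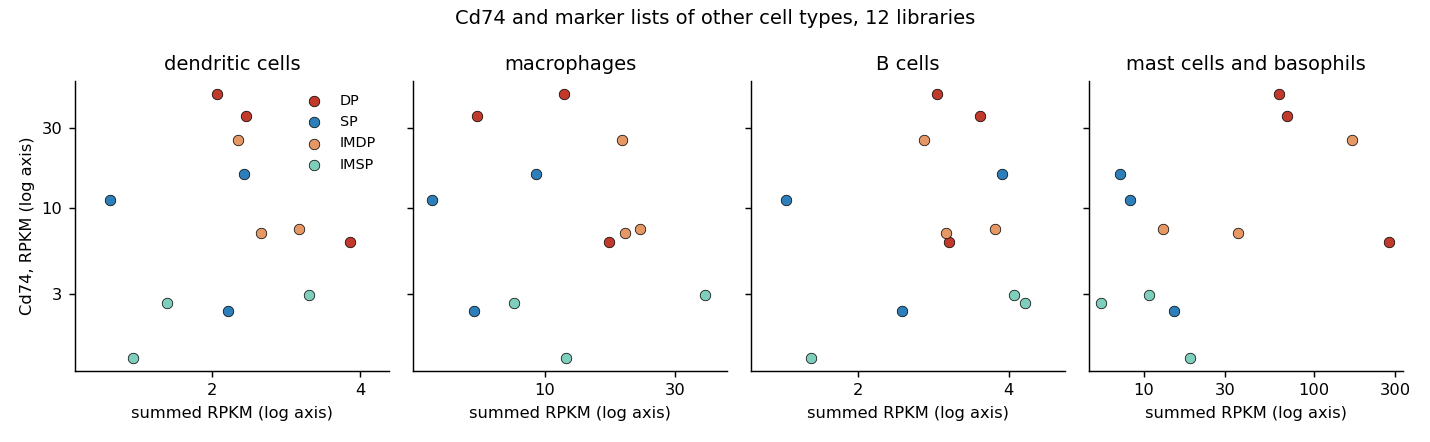
Cd74 (RPKM, log axis) against the summed RPKM of marker lists of dendritic cells, macrophages, B cells, and mast cells and basophils (log axes), with 1 point per library, 12 libraries in 4 groups. The DP library lowest in Cd74 (6.18 RPKM) has the highest dendritic cell (3.81 RPKM) and mast cell sums (276 RPKM). Much of the dendritic cell sum is Clec10a (0.979 to 3.02 RPKM in DP libraries).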

How the data were processed

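RNA of 100 sorted cells per library was sequenced in 12 libraries, 3 per group. The authors mapped the reads to GRCm38 (mm10) and deposited RPKM values, 1 for each feature of a library. CLC Genomics Workbench is the mapper in the methods, whereas the reporting summary lists HISAT2 with featureCounts; edgeR was the authors' test. Numbered copies of a gene were summed; this joins the near-equal copies under which the files list H2-Aa, H2-Ab1 and H2-Eb1. Reads were recovered from the RPKM steps (tolerance 0.01), with whole reads for 17734 of 17735 features above 0. At this depth 1 read per kilobase is 0.0486 to 0.088 RPKM, and depth covers counting error only, since PCR copies were not marked.

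The fit took genes that reached 1 RPKM in 3 or more libraries, and used limma 3.58.1 (R 4.3.3) on log2(RPKM + 0.1), with 4 group means, a variance trend and Benjamini-Hochberg adjustment over 10072 genes (threshold 0.05); the fit was tested on simulated data. Averages weight both strata equally. Ciita, below the filter, got exact permutation tests. The alternatives changed the pseudocount, filter, scaling, handling of copies, groups in the fit, block or the library left out, or used limma-voom on the recovered reads. Positions came from GENCODE M21. Tables and figures used Python 3.11.15, pandas 2.3.3 and matplotlib 3.10.9.

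All 8 members are named; genes of the antigen processing list are named where they passed in DP against SP, IMDP against IMSP or the average, and the 5 most alike genes by r, of which 1 is not reported here; a few others were named after their values were seen. The members and lists were chosen with earlier results of these data known. The replicate number of the titles paired IMDP with IMSP libraries (correlations of deviations 0.429, 0.655 and 0.457), but not DP with SP (-0.298 to -0.098), IMDP with DP (0.09 to 0.199) or IMSP with SP (-0.399 to -0.226). Neighbouring library numbers of the sample descriptions paired all 6 population pairs.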

Additional observations from a re-analysis of the deposited data

How the results depend on the processing

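The calls of Cd74 and H2-Eb1 in the average over treatments depended on the settings. Of the 7 members tested, 2 were called as reported above, 1 with 0.5 or 1 RPKM as pseudocount or with numbered copies kept apart, 0 without a filter on low values or with limma-voom, and 4 with libraries scaled to the same median or sum or with the library pair block. Leaving out 1 library at a time gave 0 to 4 members. In IMDP against IMSP cells the count of 0 became 2 when the fit held only those groups, 4 with the library pair block, and 0 to 3 without 1 library. Of all 10072 tested genes, 155 were called higher and 1398 lower with only those groups, and 828 and 3618 with the block. Without 1 library 50 to 513 were called higher and 852 to 2800 lower, against 239 and 2342 as reported above. DP against SP cells gave 1 with the library pair block and otherwise 0. The replicate block, paired by title number, gave the same 2 members in the average and 0 elsewhere, and changed no member's call. The cause of these shifts was not tested; the block by construction removes variance shared within pairs.

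H2-Aa, H2-Ab1, H2-Eb1 and Cd74 kept a positive difference in the 3 population comparisons under every alternative run. In IMDP against IMSP cells H2-DMa turned to 0.175 (same median), 0.323 (same sum), 0.068 (limma-voom), 0.24 (without IMDP replicate 2) and 0.07 (without IMSP replicate 3; -0.293 to 0.24 over single libraries left out), and H2-DMb1 to 0.238, 0.375, 0.017, 0.149 (copies apart), 0.327 (without IMDP replicate 1) and 0.213 (without IMSP replicate 3; range -0.351 to 0.327). H2-DMb2 turned to -0.496 without IMSP replicate 2 (range to 0.909). H2-DMb1 turned to 0.03 in IMDP against DP cells without IMDP replicate 1 (range from -0.649), and in the treatment average to between -0.147 and -0.005 without 1 of 6 libraries (range to 0.193). Interactions turned to -0.137 for Cd74 (range to 1.584) and -0.163 for H2-Ab1 without DP replicate 1, -0.2 for H2-Ab1 without IMDP replicate 1 (range to 1.023) and 0.304 for H2-DMb2 without SP replicate 2 (range from -1.743). None of these values was near the threshold.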
